A study of Mus musculus with 16 samples.

Results

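The neuronal pentraxins are a small family of synaptic proteins with 3 members in the mouse, neuronal pentraxin 1 (Nptx1), neuronal pentraxin 2 (Nptx2, also called Narp) and the neuronal pentraxin receptor (Nptxr). All 3 were chosen by name and taken from a table of 54532 genes, and all 3 passed the filter on low counts. Their expression was measured by RNA-seq in parvalbumin (PV) interneurons of the adult mouse cortex. In PV-Cre;lsl-eGFP-GluA2 mice (7 libraries) Cre switches on a fusion of eGFP and the AMPA receptor subunit GluA2. In the control, PV-Cre;lsl-eGFP mice (9 libraries), it switches on eGFP alone. Both groups carried PV-Cre, so the transgene was on only where parvalbumin-driven Cre was or had been active. The age of the mice was 113.1 ± 11.6 days over the study as a whole, and the labels number the libraries as biological replicates without naming the animals behind each. According to the labels, the study asked what follows when PV cells lose their calcium-permeable AMPA receptors, which contain little GluA2.

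Neuronal pentraxins gather AMPA receptors at excitatory synapses from outside the cell. Nptx1 and Nptx2 are secreted, whereas Nptxr is anchored in the membrane, and the members assemble with each other into larger complexes through their N-terminal coiled coils. Their C-terminal pentraxin domains bind the extracellular ends of AMPA receptor subunits. Nptx2 is an immediate early gene of excitatory neurons, and the protein they secrete accumulates at excitatory synapses onto PV interneurons, where Nptxr and the GluA4 subunit take part in its action. Nptx1 is released by excitatory neurons, among others, in response to astrocytic glypicans. The metalloprotease ADAM17 cleaves Nptxr and so frees clustered receptors.

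On GRCm38, Nptx1 (ENSMUSG00000025582) lies on chromosome 11 from 119538719 to 119547753 on the minus strand, with 5217 exonic bases in 1 annotated transcript. Nptx2 (ENSMUSG00000059991) lies on chromosome 5 from 144545902 to 144557478 on the plus strand, with 2536 exonic bases in 1 transcript. Nptxr (ENSMUSG00000022421) lies on chromosome 15 from 79786351 to 79804766 on the minus strand, with 5170 exonic bases in 3 transcripts. The 3 genes are related in sequence, and what they share bears on whether reads can be told apart. The stretches below are the longest runs of identical bases between the coding sequences of Nptx2 and each of the other 2 members. They are printed 5′ to 3′ along the transcript, with the longest unbroken run of shared bases in capitals and the flanks, which are also alike in part, in lower case. They were read from the GENCODE M21 transcripts on GRCm38. The capitals of the first pair stand at chr11:119547378-119547393 and chr5:144546278-144546293, and those of the second pair at chr5:144546322-144546340 and chr15:79804124-79804142.
Nptx1, shared with Nptx2: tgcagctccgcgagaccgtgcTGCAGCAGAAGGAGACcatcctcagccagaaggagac
Nptx2, shared with Nptx1: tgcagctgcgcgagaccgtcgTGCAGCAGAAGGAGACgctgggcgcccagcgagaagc
Nptx2, shared with Nptxr: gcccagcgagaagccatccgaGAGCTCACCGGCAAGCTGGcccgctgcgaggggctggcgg
Nptxr, shared with Nptx2: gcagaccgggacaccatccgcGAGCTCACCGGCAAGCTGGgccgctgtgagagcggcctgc
The runs are 16 bases for Nptx1 with Nptx2 and 19 bases for Nptx2 with Nptxr. Nptx1 and Nptxr share at most 17 bases, within a repeat of A and G outside the coding sequence. Reads were 150 bases long, far longer than any of these runs. A different overlap does touch Nptxr: another gene on the same strand, Npcd (ENSMUSG00000089837, chromosome 15, 79789675 to 79834237), shares 890 exonic bases with it. Npcd had 0 to 3 counts per library in the deposited counts and 0 to 2.39 TPM in the deposited TPM, so how reads in the shared exons were assigned is uncertain, and Nptxr is reported with that limit.

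The libraries held 7454165 to 15462544 counts each, and 26257 genes were tested. Defining markers of PV cells were present in every library: Pvalb had 981 to 5322 counts and Gad1, which makes GABA, had 11194 to 44709. Gria2, which encodes GluA2 and whose reads from the transgene and the endogenous gene are counted together, averaged 963 ± 215 CPM in eGFP-GluA2 cells and 587 ± 111 CPM in eGFP cells (SD, n = 7 and 9), with ranges of 718 to 1215 and 472 to 783 CPM that overlapped. Here CPM is the count relative to library size after scaling by the trimmed mean of M values (TMM). Libraries differed widely in reads from olfactory and vomeronasal receptor genes, which are not part of the known expression of cortical neurons, and these reads are called background. Background was under 500 CPM in 5 libraries (2 eGFP-GluA2, 3 eGFP), between 500 and 1500 CPM in 5 (3 eGFP-GluA2, 2 eGFP) and over 1500 CPM in 6 (2 eGFP-GluA2, 4 eGFP), called low, middle and high. TMM factors were 0.978 to 1.402 in the high-background libraries and 0.809 to 0.960 in the others, so the level of each member is given by background as well.

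The members differed several-fold in level, in the same order in every library. On the scale of the deposited TPM, which are corrected for length, Nptxr was highest. Its lowest, median and highest TPM were 8.26, 10.1 and 17.9 in eGFP-GluA2 cells and 6.79, 9.42 and 13.6 in eGFP cells. Nptx1 followed, with 2.04, 2.14 and 4.00 TPM in eGFP-GluA2 cells and 1.35, 1.78 and 2.54 TPM in eGFP cells. Nptx2 was lowest, with 0.549, 1.00 and 1.53 TPM in eGFP-GluA2 cells and 0.451, 0.712 and 1.16 TPM in eGFP cells. The receptor thus made up most of the pentraxin mRNA, and the activity-regulated member the least. Nptxr stood above Nptx1 and Nptx1 above Nptx2 in 7 of 7 eGFP-GluA2 and in 9 of 9 eGFP libraries. Each of these steps gave p = 0.015625 in eGFP-GluA2 cells and p = 0.00390625 in eGFP cells in an exact two-sided sign-flip permutation test, the smallest p that 7 and 9 libraries allow. The median ratio of Nptxr to Nptx1 TPM was 4.88 in eGFP-GluA2 cells and 5.55 in eGFP cells. The median ratio of Nptx1 to Nptx2 TPM was 2.76 in eGFP-GluA2 cells and 2.20 in eGFP cells.

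**Figure D1:**
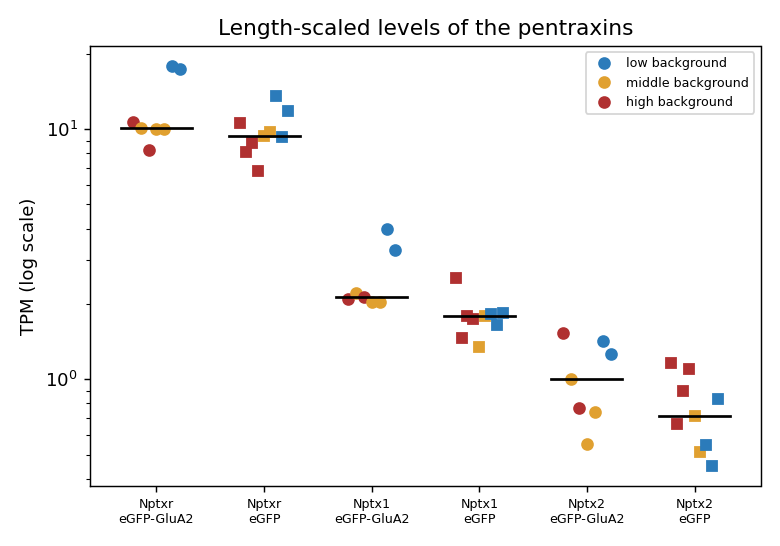
TPM on a log axis for each gene and group; each point is a library, coloured by its background, circles are eGFP-GluA2, squares are eGFP, and lines are medians. The medians fall in 3 steps, near 10 TPM for Nptxr, near 2 TPM for Nptx1 and near 1 TPM for Nptx2, and the 2 low-background eGFP-GluA2 libraries hold the highest TPM of Nptx1 and of Nptxr.

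As shares of the summed pentraxin TPM, Nptxr held 76.9% ± 2.19 in eGFP-GluA2 cells and 79.1% ± 4.57 in eGFP cells (SD, n = 7 and 9). Nptx1 held 16.4% ± 1.52 in eGFP-GluA2 cells and 14.5% ± 2.38 in eGFP cells. Nptx2 held 6.73% ± 2.01 in eGFP-GluA2 cells and 6.39% ± 2.52 in eGFP cells. The groups overlapped for every member. Against all genes tested, the mean TPM over 16 libraries was 10.8 for Nptxr, which stood above 76.9% of them. Nptx1, at 2.11 TPM, stood above 49.0%, and Nptx2, at 0.884 TPM, above 32.2%. So the receptor was among the well expressed genes of these sorted cells, and Nptx2 was a low one.

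Because Nptx2 was low, its level was also set against the background genes. Per kilobase of exon, the members stood above 98.8% to 100% of the 1721 background genes in each of the 16 libraries. In the high-background libraries Nptx2 had an RPKM (CPM per kilobase of exon, scaled by library size alone) of 1.87 to 3.39, where the median background gene had 0.346 to 0.791. Counts set the precision, and exact Poisson 95% intervals, which cover counting error only, show how it differs between members. The lowest Nptx2 count, 26 in eGFP replicate 6, has an interval of 17.0 to 38.1. The lowest Nptx1 count, 151 in eGFP-GluA2 replicate 1, has one of 128 to 177. The lowest Nptxr count, 416 in eGFP replicate 4, has one of 377 to 458.

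Nptx1 had the largest group difference of the members relative to its error. Its lowest, median and highest level was 15.2, 24.4 and 25.8 CPM in eGFP-GluA2 cells and 12.1, 16.7 and 18.7 CPM in eGFP cells. The means were 22.4 ± 4.41 CPM in eGFP-GluA2 cells and 16.3 ± 2.04 CPM in eGFP cells (SD, n = 7 and 9). In 5 of 7 eGFP-GluA2 libraries Nptx1 lay above every eGFP library, and the 2 that did not were the high-background ones. By background, Nptx1 was at 24.4 and 25.8 CPM in the low-background eGFP-GluA2 libraries, against 16.02, 17.1 and 17.2 CPM in the eGFP ones. In the middle it was at 23.3, 25.4 and 25.7 CPM in eGFP-GluA2 libraries, against 16.7 and 18.7 CPM in eGFP ones. In the high-background libraries it was at 15.2 and 17.1 CPM in eGFP-GluA2, against 12.1, 14.4, 15.8 and 18.5 CPM in eGFP, and there the groups overlapped. In bulk samples such as these, fewer cells of a type and less RNA per cell cannot be told apart.

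**Figure D2:**
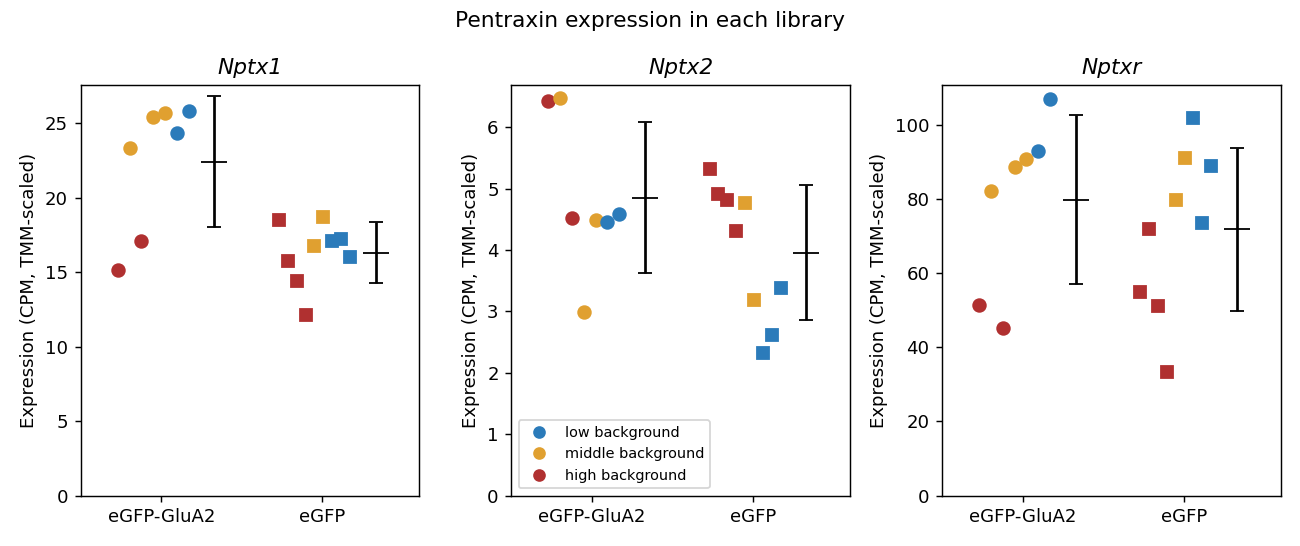
CPM of each member per library (TMM-scaled), eGFP-GluA2 left of eGFP in each panel; points are libraries coloured by background, and the bars beside them are the mean and SD. Nptx1 lies above every eGFP library in 5 of 7 eGFP-GluA2 libraries, while the groups overlap for Nptx2 and Nptxr.

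The log2 fold change of Nptx1 was 0.46 ± 0.12 (SE, 95% interval 0.20 to 0.72) in edgeR's quasi-likelihood test over 16 libraries, with an unadjusted p of 0.0015 that ranked 16 of 26257. After Benjamini-Hochberg adjustment over all genes its p was 1.00, so it did not pass the threshold of 0.05. The test was sparing throughout: 1 of 26257 genes passed it, or 0.00381%, and 0 of the 3 members did. In DESeq2 on the same counts Nptx1 rose (log2 fold change 0.44, adjusted p = 0.0306), as 1 of 14 genes that passed (0.0533%), and Nptx2 and Nptxr did not pass. Without the high-background libraries Nptx1 also rose (log2 fold change 0.56 ± 0.07, SE, edgeR adjusted p = 0.0259, 5 against 5 libraries), as 1 of 3 genes that passed among 21492 (0.014%). In the low-background libraries alone, a comparison of 2 against 3 libraries chosen after seeing the data, it rose by 0.61 ± 0.12 on the log2 scale (SE, edgeR adjusted p = 0.00629), and 0.791% of 19457 genes passed. When background entered the fit as a covariate, the fold change was 0.44 ± 0.10 (SE, adjusted p = 0.371 in edgeR), and 9 genes passed (0.0343%), with 0 members among them. The authors' deposited table gives Nptx1 a log2 fold change of 0.33 (SE 0.117, adjusted p = 1.00).

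In single-gene tests on libraries, log2 CPM of Nptx1 differed by 0.44 (exact two-sided permutation p = 0.00516 over 11440 assignments of libraries to groups). Permuted within background levels it differed by 0.37 (exact permutation p = 0.00533). On log2(TPM + 0.5) the difference was 0.40 (exact permutation p = 0.00472). These p-values are for a single gene and are not adjusted over the genes tested. Nptx1 was 1 of 70 genes (0.267% of 26257) whose eGFP-GluA2 libraries all lay above all eGFP libraries at low and middle background. Neither Nptx2 nor Nptxr was among them. That set leaves out the high-background libraries, where the groups overlapped for Nptx1. A share of 0.00397 of the 252 assignments of these libraries to groups gives such an order, so the count is only a description. When the counts were scaled by library size alone, Nptx1 was at 20.3 to 22.6 CPM in eGFP-GluA2 cells and at 13.8 to 17.4 CPM in 8 of 9 eGFP libraries. The exception, eGFP replicate 1, was at 24.8 CPM on that scale.

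**Figure D3:**
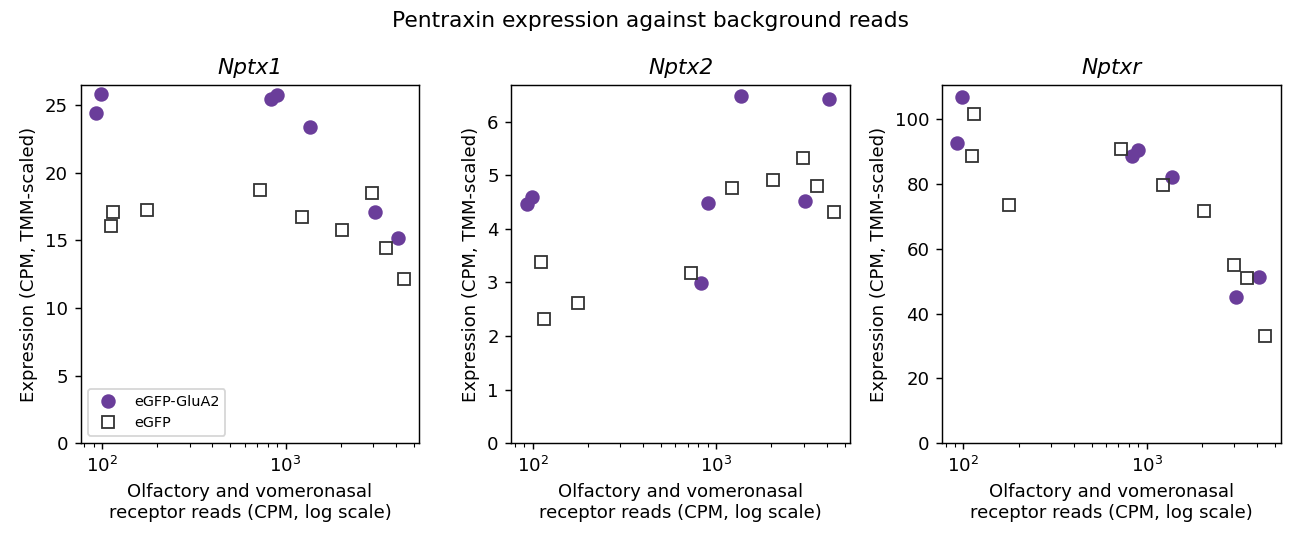
CPM of each member (TMM-scaled) against background reads in CPM on a log axis; filled circles are eGFP-GluA2 libraries and open squares are eGFP libraries. Below 1500 CPM of background all 5 eGFP-GluA2 libraries stand above all 5 eGFP libraries for Nptx1, and Nptxr is lower at high background in both groups.

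Markers of excitatory neurons, which themselves make Nptx1, stood somewhat higher on average in eGFP-GluA2 libraries. Of 12 such markers 10 had a log2 fold change above 0, with a median of 0.19, against a median of -0.02 and 45.5% above 0 over all genes tested. None of the 12 passed the test in edgeR, and none was at 0 in any library, the lowest count being 7. Slc17a7, the vesicular glutamate transporter of cortical excitatory cells, had a log2 fold change of 0.58 ± 0.22 (SE). The most abundant of the list, Cux2 and Camk2a, had 0.05 ± 0.15 and 0.18 ± 0.18. The summed level of the list was 460 to 514 CPM in eGFP-GluA2 cells and 385 to 517 CPM in eGFP cells. Its mean log2 CPM was 3.57 ± 0.19 in eGFP-GluA2 cells and 3.30 ± 0.24 in eGFP cells (SD, n = 7 and 9).

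With that mean as the only covariate, Nptx1 was at 0.53 ± 0.14 on the log2 scale (SE, adjusted p = 0.0693 in edgeR). In this fit 4 genes passed (0.0152%), and 0 members did. Unadjusted edgeR p-values under 0.05 were held there by 11661 of 26257 genes, against 293 without covariates. Nptx1 ranked 309 by p, against 16 without covariates, so its lower adjusted p there is not stronger evidence for Nptx1. With the background level and the excitatory marker level together, a fit added after seeing the data, Nptx1 was at 0.24 ± 0.16 (SE, 95% interval -0.09 to 0.56, adjusted p = 1.00 in edgeR). In that fit 2 genes passed (0.00762%), 0 members among them, and Nptxr had a log2 fold change of -0.18 ± 0.21. By background level, the excitatory mean was 3.26 to 3.42 in eGFP-GluA2 and 2.90 to 3.27 in eGFP libraries at low background, and 3.51 to 3.73 in eGFP-GluA2 and 3.24 to 3.35 in eGFP libraries in the middle. At high background it was 3.59 to 3.78 in eGFP-GluA2 and 3.43 to 3.62 in eGFP libraries. In both groups the excitatory mean was thus higher at high than at low background. It is therefore not a measure of excitatory cells independent of background. Only in the middle did the groups not overlap on this mean. The size of the Nptx1 difference thus depended on whether both levels were in the fit.

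**Figure D4:**
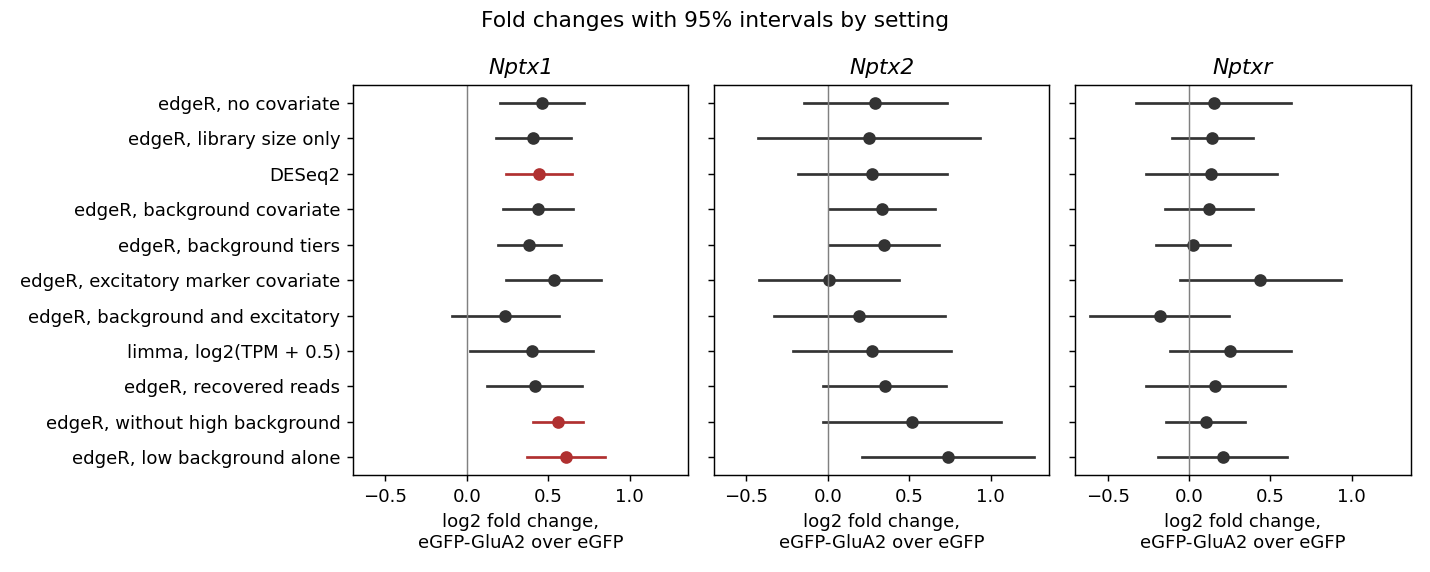
Log2 fold change of each member, eGFP-GluA2 over eGFP, with its 95% interval under 11 fits; red marks an adjusted p under 0.05. The Nptx1 intervals lie above 0 in every fit shown but that with the background and excitatory marker levels together, whereas the Nptxr intervals span 0 throughout.

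Nptx2, the activity-regulated member, showed no difference that passed the test. Its lowest, median and highest level was 2.99, 4.51 and 6.48 CPM in eGFP-GluA2 cells and 2.32, 4.31 and 5.31 CPM in eGFP cells, and the groups overlapped. Its log2 fold change came to 0.29 ± 0.21 (SE, 95% interval -0.15 to 0.73), with an edgeR adjusted p of 1.00. On log2 CPM the exact permutation p was 0.157. In eGFP-GluA2 cells Nptx2 was at 4.51 and 6.43 CPM in the high-background and at 4.46 and 4.59 CPM in the low-background libraries. In eGFP cells it was at 4.31 to 5.31 CPM in the high-background libraries and at 2.32, 2.62 and 3.38 CPM in the low-background ones. At middle background it was at 2.99, 4.49 and 6.48 CPM in eGFP-GluA2 cells and 3.18 and 4.77 CPM in eGFP cells, which overlapped. At low background the groups therefore did not overlap for Nptx2, and they did not for Nptx1 either, but 9.23% of all genes tested had eGFP-GluA2 above eGFP there. With background as a covariate Nptx2 was at 0.33 ± 0.16 on the log2 scale (SE, adjusted p = 1.00 in edgeR). With the excitatory marker level as the only covariate it was 0.01 ± 0.20, in a fit where the median log2 fold change of all genes was -0.11. With both levels it was 0.19 ± 0.25 (SE). The 95% interval over all libraries leaves room for a change of Nptx2 as large as that of Nptx1. Scaled by library size alone, Nptx2 over both groups was at 2.00 to 4.07 CPM at low and 4.74 to 8.59 CPM at high background. Those ranges did not overlap, and how much of its counts came from background was not tested.

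Nptxr, the membrane-bound partner, was measured with more counts than the other members. On the TMM scale its level went with background more plainly than with group. Its lowest, median and highest level was 45.2, 88.6 and 107 CPM in eGFP-GluA2 cells and 33.2, 73.6 and 102 CPM in eGFP cells. Its log2 fold change came to 0.15 ± 0.22 (SE, 95% interval -0.32 to 0.63), with an edgeR adjusted p of 1.00. On log2 CPM the exact permutation p was 0.523. In the high-background libraries it was at 45.2 and 51.3 CPM in eGFP-GluA2 and 33.2 to 71.7 CPM in eGFP cells. In the low-background libraries it was at 92.9 and 107 CPM in eGFP-GluA2 cells and 73.6, 88.8 and 102 CPM in eGFP cells. At middle background it was at 82.2, 88.6 and 90.7 CPM in eGFP-GluA2 cells and 79.7 and 91.0 CPM in eGFP cells. The groups overlapped at each level. Scaled by library size alone, Nptxr over both groups was at 59.4 to 93.8 CPM at low and 45.4 to 73.9 CPM at high background. Those ranges overlapped, so the fall with background was less plain on that scale. With the background as a covariate the log2 fold change was 0.12 ± 0.13, with an SE smaller than that without it. On TPM, permuted within background levels, the difference of Nptxr was 0.26 on the log2(TPM + 0.5) scale (exact permutation p = 0.0447), against 0.04 on log2 CPM (exact permutation p = 0.785), so its size depended on which of the authors' tables was used. The same test on TPM gave 0.34 for Nptx2 (exact permutation p = 0.0447). TPM stood high relative to CPM for other genes too in the low-background eGFP-GluA2 libraries. Pvalb there was at 414 and 341 TPM, against 319 and 313 CPM scaled by library size alone. In the low-background eGFP libraries it was at 306, 331 and 388 TPM, against 320, 369 and 396 CPM. What this adds to the TPM differences of the members, Nptx1 included, was not tested.

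Whether the group difference of a member changed with background was tested as an interaction. The coefficient was -0.06 ± 0.05 per log2 unit of background for Nptx1, -0.11 ± 0.07 for Nptx2 and 0.01 ± 0.07 for Nptxr (SE), with unadjusted p-values of 0.224, 0.151 and 0.943 in edgeR and an adjusted p of 1.00 each. The smaller difference of Nptx1 at high background was thus not shown to depart from that in the other libraries.

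The members were also set against each other within a library, where the scaling of the library cancels but the choice of counts or TPM does not. The log2 ratio of Nptx1 to Nptxr averaged -1.79 ± 0.20 in eGFP-GluA2 cells and -2.07 ± 0.39 in eGFP cells (SD, n = 7 and 9). The difference of 0.28 gave an exact permutation p of 0.107, or 0.322 adjusted over the 3 ratios. Within background levels it was 0.33 (exact permutation p = 0.012, adjusted over the 3 ratios 0.036). The log2 ratio of Nptx1 to Nptx2 averaged 2.18 ± 0.58 in eGFP-GluA2 cells and 2.03 ± 0.50 in eGFP cells, a difference of 0.15 (exact permutation, adjusted p = 0.731). The log2 ratio of Nptx2 to Nptxr averaged -3.97 ± 0.68 in eGFP-GluA2 cells and -4.10 ± 0.82 in eGFP cells, a difference of 0.13 (exact permutation, adjusted p = 0.731). On log2(TPM + 0.5) over all libraries the Nptx1 to Nptxr difference was 0.14 (exact permutation, adjusted over the 3 ratios p = 0.576). The ratio on TPM was not tested within background levels. On log2 CPM the Nptx1 difference thus exceeded that of Nptxr within background levels but not without them. It was not shown to exceed that of Nptx2 in either test.

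The genes whose profiles were most like each member were found by the Pearson correlation of log2 CPM after the mean of each background level was subtracted, over 16 libraries and 14433 genes. These correlations are descriptions, since the libraries share depth, scaling and the group difference itself. For Nptx1 the closest were Shisa8, an AMPA receptor auxiliary protein (r = 0.88), Pde9a, a cyclic GMP phosphodiesterase (0.85), Ints7, an Integrator subunit (0.85), Gria2 (0.84) and 2810029C07Rik (0.84). Slc17a7 correlated at 0.72, and 68 genes correlated more closely. For Nptx2 the closest were Dll1, a Notch ligand (0.88), Mdga1, a synaptic adhesion regulator (0.82), Bmp1, a metalloprotease (0.82), Ccdc13 (0.81) and Cachd1 (0.81). For Nptxr they were Mtcl1, a microtubule crosslinker (0.93), Pgls, an enzyme of the pentose phosphate pathway (0.92), Miga2, a mitochondrial fusion protein (0.91), Ppp6r1, a phosphatase regulatory subunit (0.90), and Flcn, folliculin (0.89). No member was among the 5 closest to another: r was 0.46 between Nptx1 and Nptxr, 0.41 between Nptx1 and Nptx2 and 0.15 between Nptx2 and Nptxr. The members were thus not each other's closest profiles. Nptx2 had only 26 to 64 counts per library, and counting error at that depth can lower its correlations. The 5 closest were also the highest of 14433 genes, so these values do not settle whether the members vary together.

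The receptors that pentraxins gather and the proteins that act with those receptors gave the following. Of the 4 AMPA receptor subunits, 4 had a log2 fold change above 0 (median 0.12) and 0 passed edgeR without covariates. Gria2, the subunit of the transgene, had a log2 fold change of 0.71 ± 0.16 (SE). Gria4, the subunit that pentraxins are known to recruit in PV cells, had 0.08 ± 0.18, Gria1 had 0.17 ± 0.21 and Gria3 had 0.06 ± 0.18. When background was a covariate Gria2 passed (0.69, adjusted p = 0.0128 in edgeR), and the other subunits did not. Of 14 auxiliary proteins of AMPA receptors, 13 had a log2 fold change above 0 (median 0.19) and 0 passed. The smallest p-values were those of Shisa8, at 0.61 ± 0.14, and of Cnih3, a cornichon, at 0.44 ± 0.15 (SE). Shisa8 averaged 7.95 ± 1.25 CPM in eGFP-GluA2 cells and 5.21 ± 0.932 CPM in eGFP cells (SD, n = 7 and 9).

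Genes that release or cleave pentraxins stood close to all genes tested. Of 5 genes, 4 were above 0, with a median log2 fold change of 0.03, and 0 passed. The cleaving protease Adam17 was at 19.3 ± 2.08 CPM in eGFP-GluA2 cells and 19.2 ± 2.28 CPM in eGFP cells (SD, n = 7 and 9). The glypicans Gpc4 and Gpc6, which astrocytes release, had log2 fold changes of 0.16 ± 0.31 and -0.40 ± 0.29 (SE). Of 7 known binding partners, 5 were above 0 (median 0.03) and 0 passed. The smallest p-values there were those of C1qb and C1qc, subunits of complement C1q, at 0.30 ± 0.40 and 0.12 ± 0.39 (SE). Of 7 genes of the perineuronal net, the matrix around PV cells, 6 were above 0 (median 0.08) and 0 passed. Its core protein aggrecan, Acan, was at 0.17 ± 0.20, and the link protein Hapln4 at 0.26 ± 0.33 (SE).

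Because Nptx2 belongs to the genes that neuronal activity induces, 19 others of that kind were counted. Of these, 15 had a log2 fold change above 0, with a median of 0.15, and 0 passed edgeR. The smallest p-values were those of Pcsk1, a prohormone convertase, at 0.25 ± 0.13, and Ier2, an immediate early gene, at 0.33 ± 0.20 (SE). Nptx2, at 0.29 ± 0.21, lay inside the range of the list, which ran from -0.11 for Btg2 to 0.34 for Egr1.

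**Figure D5:**
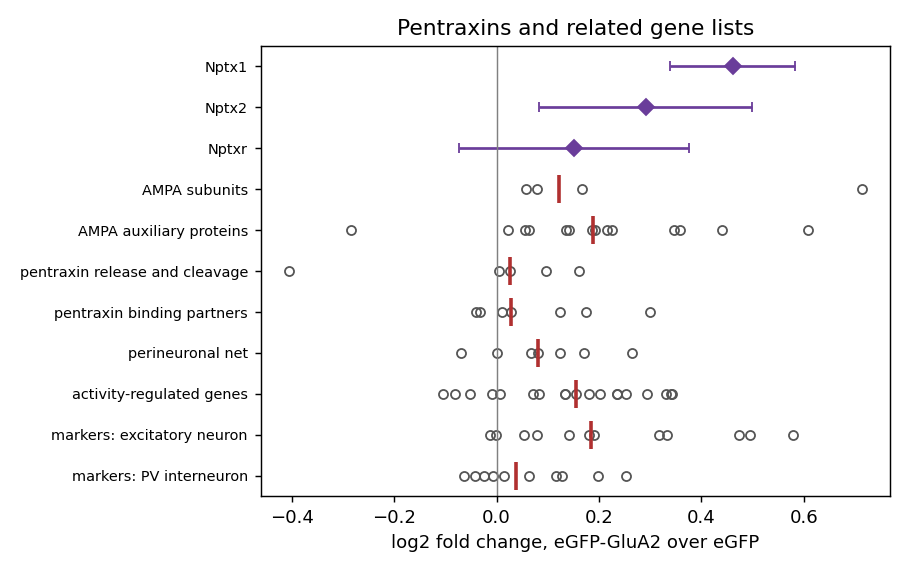
Log2 fold change, eGFP-GluA2 over eGFP, in edgeR without covariates: diamonds are the members with their SE, open circles are single genes of each list, and red bars are list medians. Medians of the lists drawn here run from 0.03 to 0.19, and Nptx1, at 0.46, lies to the right of them.

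The short and long pentraxins of the immune system were also counted, as relatives of the neuronal ones. Ptx3, Ptx4 and Crp passed the filter, with log2 fold changes of 0.04 ± 0.92, 0.54 ± 0.91 and -0.18 ± 1.02 (SE), whereas Apcs, Mptx1 and Mptx2 did not. Ptx3 had 0 and 0 counts in the low-background eGFP-GluA2 libraries and 0, 3 and 1 in the eGFP ones, but 26 and 27 counts in the high-background eGFP-GluA2 libraries and 11 to 31 in the eGFP ones. Crp ran the same way, with 0 to 1 counts at low background and 18 to 38 at high background. Nptx1, by contrast, had 298 and 344 counts in the low-background eGFP-GluA2 libraries and 184 to 207 in the eGFP ones. Nptx2 in eGFP libraries went partly with Ptx3 and Crp, with 28, 28 and 39 counts at low and 52 to 61 at high background. In eGFP-GluA2 libraries Nptx2 had 53 and 63 counts at low and 51 and 64 at high background.

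Markers of the cells that were sorted and of other cells stood as follows. Of 10 markers of PV cells 6 were above 0 (median log2 fold change 0.04), with Kcnc1, a fast potassium channel, at 0.25 ± 0.23 and Tac1, a neuropeptide precursor, at 0.20 ± 0.21 (SE). Pvalb averaged 273 ± 102 CPM in eGFP-GluA2 cells and 274 ± 136 CPM in eGFP cells (SD, n = 7 and 9). Of 9 markers of other interneurons 5 were above 0 (median 0.01), with Lamp5 at 0.51 ± 0.14 and Npy at 0.45 ± 0.27 (SE). Above 0 were 2 of 6 astrocyte markers (median -0.04), 7 of 9 of the oligodendrocyte lineage (median 0.17), 4 of 5 of microglia (median 0.10) and 3 of 7 of endothelial and mural cells (median -0.02). None of these markers passed edgeR without covariates, and their part in the Nptx1 difference was not tested. The astrocyte genes of smallest p were Aqp4 and Gfap, at -0.21 ± 0.25 and 0.34 ± 0.47 (SE). Those of the oligodendrocyte lineage were Mbp and Olig2, at 0.23 ± 0.19 and 0.57 ± 0.48 (SE). Aqp4 had 28 to 45 counts at low and 51 to 85 at high background, and Gfap 8 to 22 and 48 to 88. Olig2 likewise had 3 to 15 and 20 to 30, whereas Mbp had 597 to 955 and 344 to 613.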

How the data were processed

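RNA-seq of sorted cortical PV interneurons was analysed in 16 libraries, 7 eGFP-GluA2 and 9 eGFP, grouped by the labelled genotype. Per the labels' protocols, tissue was digested with pronase, fixed in 4% paraformaldehyde for 15 min, triturated and sorted for nuclear dye and green fluorescence, and polyA RNA was sequenced as 150-base pairs. Per the series' design text, the authors aligned reads with STAR to GRCm38 in bcbio-nextgen 1.2.3, quantified genes with Sailfish and used DESeq2. The deposited counts are whole reads per gene and are not normalized. Neither the counter behind them nor its use of strand is stated in the labels or headers. TPM were deposited as the authors scaled them for transcript length. Another table of the authors holds signal values, which are counts divided by a size factor, beside the authors' log2 fold change, its test statistic (a score) and p-values. Divided by the smallest non-zero value of their library, all of these signal values (100%, tolerance 0.001) came to whole numbers. With that smallest value taken as a single read, they summed to 10477517 to 17382059 reads in each library. These recovered reads are not the deposited counts, and were tested as an alternative.

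Identifiers were named from GENCODE M21 (54495 of 54532). EdgeR 4.0.16 used TMM scaling, filterByExpr and its robust quasi-likelihood test on the counts, with Benjamini-Hochberg adjustment over all 26257 genes kept. Those held 99.16% of counts, and 28275 genes were removed. Log2 CPM used a prior count of 2. Single values were compared by exact permutation over 11440 assignments, or 1500 within background levels. Background is the CPM of 1721 autosomal Olfr, Vmn1r and Vmn2r genes. Alternatives were other scalings, filters and pseudocounts, DESeq2 1.42.0, limma 3.58.1 (voom and TPM), 1 surrogate variable (sva 3.50.0), covariates, a replicate block, and left-out libraries. R 4.3.3, Python 3.11.15 and scipy 1.17.1 were used, and the edgeR fits with and without the background covariate were tested on simulated data. The members and the 14 gene lists (120 genes) were chosen with earlier results of these data known. Named genes were the members, the AMPA subunits, the pentraxin relatives, Pvalb, per list the genes that passed or else those of the 2 smallest p-values, the 2 most abundant excitatory markers and the 5 profiles most like each member. A gene that this rule names is not reported here. Adam17, Gad1, Btg2 and Egr1 were named after their values were seen. P-values measure the spread between these libraries, and nothing says whether same-numbered libraries share a litter or day.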

Additional observations from a re-analysis of the deposited data

Results flagged for a closer look

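In 2 cases a single library stood far from the rest of its group, both for Nptx1 in eGFP replicate 1, a high-background library. Scaled by library size alone, it had 24.8 CPM, and the nearest other eGFP library had 17.4 CPM, a gap of 0.676 of the group's range. In the deposited TPM it had 2.54, and the nearest other had 1.83, a gap of 0.594 of the range. On the TMM scale the same library, at 18.5 CPM, did not stand apart. Chance alone sets apart a library in about 1 in 20 groups, and 18 groups were examined. Without that library the difference of Nptx1 on log2 CPM was 0.46 (exact permutation p = 0.00715), against 0.44 with it (exact permutation p = 0.00516). On log2(TPM + 0.5) it was 0.45 without that library (exact permutation p = 0.000155) and 0.40 with it (exact permutation p = 0.00472).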

How the results depend on the processing

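Of 39 alternatives to edgeR over 16 libraries, Nptx1 kept a log2 fold change above 0 in 39 (0.24 to 0.61) and passed the threshold in 3. These were DESeq2 (0.44), the fit without the high-background libraries (0.56) and that on the low-background libraries alone (0.61). Nptx2 ran from 0.01 to 0.74 and Nptxr from -0.18 to 0.44, and neither passed. Nptxr turned negative (-0.18) with the background and excitatory marker levels together. Leaving out each library gave 0.41 to 0.54 for Nptx1, 0.20 to 0.38 for Nptx2 and 0.06 to 0.25 for Nptxr.

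The number of genes that passed was 1 without covariates and in each fit that left out 1 library. It was 2 with upper-quartile scaling and with library size alone, 14 with DESeq2 and 3 on recovered reads. In limma on log2(TPM + pseudocount) it was 2 at 0.5, with and without a filter, 3 at 0.1 and 2 at 1. It was 9 with the background covariate, 11 with background levels as a block, 9 with 1 surrogate variable, 4 with the excitatory covariate and 3 without the high-background libraries. In fits chosen after seeing the data it was 5 on recovered reads with the background covariate, 9 with that covariate without eGFP replicate 1, 2 with both covariates and 154 at low background alone. The causes were not tested.

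With the replicate number as a replicate block 7 genes passed, and the log2 fold changes were 0.46 for Nptx1, 0.20 for Nptx2 and 0.22 for Nptxr, 0 of them past the threshold. Same-numbered libraries deviated together with correlations of -0.03 to 0.90, that of number 4 being the lowest, so the numbers were not taken to pair the libraries. For numbers 1, 3 and 7, whose 2 libraries had the same background level, the correlations were 0.89, 0.89 and 0.90. High background fell on eGFP replicates 1 to 4 and eGFP-GluA2 replicates 1 and 3. Low background fell on eGFP replicates 7 to 9 and eGFP-GluA2 replicates 6 and 7. The replicate number thus ran with background in both groups.

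In single-gene exact permutation tests Nptx1 stayed under 0.05 in every alternative. Nptx2 on TPM ran from 0.198 to 0.357 with 1 library left out, and without eGFP-GluA2 replicate 4 it came under 0.05 (0.357, exact permutation p = 0.0416, against 0.115 with it). Within background levels, TPM gave 0.344 for Nptx2 and 0.261 for Nptxr (exact permutation p = 0.0447 each). The difference in the ratio of Nptx1 to Nptxr within background levels, on log2 CPM, was 0.327. The ratio of Nptx2 to Nptxr, at 0.13, ran from -0.0355 to 0.282 with 1 library left out, being -0.0355 without eGFP-GluA2 replicate 1 and -0.0247 without eGFP replicate 7. Depth limits Nptx2 most, at 26 to 64 counts per library.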
